A study of Rattus norvegicus with 12 samples.

Results

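A set of 10 genes of the integrated stress response were followed here across kidneys and kidney grafts: Atf4, Atf3, Ddit3, Ppp1r15a, Trib3, Sesn2, Slc7a5, Asns, Herpud1 and Hspa5. They were taken by gene symbol from the array's annotation, and no measured value enters that rule, although earlier results of these data were known when the list was drawn up. All 10 were on the array, each with 1 probe, among 9653 named genes and 18478 features tested. A feature is a named gene, with its probes averaged, or an unnamed probe.

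The kidneys came from inbred male Lewis rats, so the transplants were isografts, exchanged between genetically identical animals, and the ages of the animals are not given in the sources used here. There were 4 groups of 3 arrays each. Normal kidneys were from animals without brain death or transplantation (0 h). Brain dead donor kidneys were taken after brain death had been brought on by slowly raising the intracranial pressure and the rats had been ventilated for 6 h (0 h, before transplantation). Living donor grafts and brain dead donor grafts were left kidneys taken 1 h after orthotopic transplantation with 30 min of operative ischemia, in recipients whose right kidney had been removed. Brain death and the 6 h of ventilation went together in every donor and cannot be told apart, and neither can surgery, ischemia and reperfusion. The free-text description is identical on all 12 samples and goes against most of the titles, so groups were read from the titles.

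Each array compared Cy3-labelled RNA of 1 kidney with Cy5-labelled RNA of a pool of 3 normal kidneys. Values below are log2 ratios of the kidney over that pool, so that 0 equals the pool and 1 is a ratio of 2. The base of the deposited logarithm was read from the limits of the values, not from a stated unit, and every fold rests on it. The labels do not say which kidneys made up the pool. The normal kidneys did not all lie at 0 (group means from -0.35 for Herpud1 to 0.69 for Slc7a5), so each group is read against the normal kidneys and not against 0. Levels of different genes are not compared, since each probe has its own brightness. Array medians lay between 0 and 0.0099, and the mean correlation of an array with the others of its group was 0.851 to 0.94, lowest for replicate 21 of the brain dead donor grafts. The design text speaks of individual grafts, but no animal numbers are given, and p-values describe the spread among these arrays, part of which may be technical. In whole kidney RNA, fewer cells of a type and less RNA per cell cannot be told apart.

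In the integrated stress response, kinases that sense amino acid shortage, unfolded protein in the endoplasmic reticulum (ER), haem shortage or double-stranded RNA phosphorylate the translation factor eIF2. General protein synthesis then slows, while the messenger RNA of the transcription factor ATF4 is translated more. ATF4 turns on genes for amino acid uptake and synthesis, further transcription factors such as ATF3 and CHOP (the product of Ddit3), and Ppp1r15a, which brings a phosphatase to eIF2 and ends the response. Herpud1 and Hspa5 belong to the unfolded protein response of the ER, which shares one of these kinases. The arrays measured messenger RNA only, and neither eIF2 phosphorylation nor ATF4 protein.

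Promoter sequence of the members was looked at as a description, and its part in the differences below was not tested. RefSeq (build GRCr8) gave the 250 bases before the start of 9 of the 10 genes, all but Atf3, and these were searched on both strands for the core shared by C/EBP-ATF elements, TGATGNAA, for the cAMP response element TGACGTCA, and for the ER stress element, which is CCAAT and CCACG with 9 bases between them. The motifs do not overlap one another in these windows. Of 33469 promoters of that length, 3.4% held the first, 1.59% the second and 0.0657% the third. Trib3 and Herpud1 held the C/EBP-ATF core on the opposite strand, Ppp1r15a held the cAMP response element and Hspa5 the ER stress element. The 4 windows with a match are shown 5′ to 3′ on the strand of the gene, with the match in capitals. A match is a description of letters and not a site of binding, and the windows of Atf4, Ddit3, Sesn2, Slc7a5 and Asns held none of these letters.
Trib3 (chr3:161275534-161275783, minus strand): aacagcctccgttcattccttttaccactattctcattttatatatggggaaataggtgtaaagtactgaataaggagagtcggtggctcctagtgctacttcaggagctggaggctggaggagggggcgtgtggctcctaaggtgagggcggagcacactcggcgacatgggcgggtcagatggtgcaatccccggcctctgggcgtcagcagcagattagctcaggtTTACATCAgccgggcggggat
Herpud1 (chr19:10614708-10614957, minus strand): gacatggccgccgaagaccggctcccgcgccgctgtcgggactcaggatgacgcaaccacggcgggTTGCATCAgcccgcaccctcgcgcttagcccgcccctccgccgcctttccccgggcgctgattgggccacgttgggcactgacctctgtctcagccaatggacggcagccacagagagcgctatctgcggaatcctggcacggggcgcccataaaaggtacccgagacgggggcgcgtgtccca
Ppp1r15a (chr1:105139597-105139846, minus strand): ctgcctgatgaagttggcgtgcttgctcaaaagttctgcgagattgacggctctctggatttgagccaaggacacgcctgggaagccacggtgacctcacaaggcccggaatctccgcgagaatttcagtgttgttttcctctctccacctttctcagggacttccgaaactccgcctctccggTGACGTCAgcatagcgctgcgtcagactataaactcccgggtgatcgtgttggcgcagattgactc
Hspa5 (chr3:38452766-38453015, plus strand): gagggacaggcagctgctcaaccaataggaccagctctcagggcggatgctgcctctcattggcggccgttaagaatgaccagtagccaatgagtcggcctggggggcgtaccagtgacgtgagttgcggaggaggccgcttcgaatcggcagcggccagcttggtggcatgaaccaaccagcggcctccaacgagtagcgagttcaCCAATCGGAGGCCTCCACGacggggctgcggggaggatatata

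Atf4, the central transcription factor of the response, was higher than normal in each of the other 3 groups. Its log2 ratios were 0.22, 0.22 and 0.14 in normal kidneys and 0.85, 1.20 and 1.19 in brain dead donor kidneys. They were 1.52, 1.49 and 1.29 in living donor grafts and 1.61, 1.57 and 1.69 in brain dead donor grafts. No 2 groups overlapped, and the order from low to high was normal, brain dead donor kidney, living donor graft and brain dead donor graft. Atf4 was 1.85-fold above normal in brain dead donor kidneys (log2 difference 0.89 ± 0.10, SE, n = 3 arrays per group, adjusted p = 0.00274, limma with Benjamini-Hochberg adjustment, as for every adjusted p here). In living donor grafts it was 2.36-fold above normal (1.24 ± 0.10, adjusted p = 0.000588), and in brain dead donor grafts 2.70-fold (1.43 ± 0.10, adjusted p = 9.19e-05). The steps between the 3 raised groups did not pass when all arrays counted equally. Living donor grafts lay 0.35 ± 0.10 above brain dead donor kidneys (adjusted p = 0.0967), and brain dead donor grafts 0.19 ± 0.10 above living donor grafts (adjusted p = 0.293). With array weights in limma the first of these was 0.31 and passed (adjusted p = 0.00957). The weights took all features that passed in that comparison from 372 to 3457.

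Atf3, a stress-induced factor of the ATF family that can repress or activate transcription, showed the largest differences of the 10 genes in the comparisons with normal kidneys. It measured -0.21, -0.52 and -0.02 in normal kidneys and 2.29, 2.24 and 0.92 in brain dead donor kidneys, where replicate 3 was well below the other two. Living donor grafts measured 4.55, 4.55 and 3.72 and brain dead donor grafts 4.52, 3.65 and 4.35. The 2 kinds of graft overlapped with each other and with no other group. Atf3 was 4.18-fold above normal in brain dead donor kidneys (2.06 ± 0.39, adjusted p = 0.0199), 23-fold in living donor grafts (4.52 ± 0.39, adjusted p = 0.00064) and 21.5-fold in brain dead donor grafts (4.42 ± 0.39, adjusted p = 0.000422). Living donor grafts lay 5.50-fold above brain dead donor kidneys (2.46 ± 0.39, adjusted p = 0.0167). Between the 2 kinds of graft the difference was -0.10 ± 0.39 (adjusted p = 0.911).

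Ddit3, which encodes CHOP, a C/EBP-family factor linked to cell death under lasting ER stress, was higher in both kinds of graft and did not pass in brain dead donor kidneys. Its ratios were 0.06, -0.02 and -0.08 in normal kidneys and 0.25, 0.01 and 0.04 in brain dead donor kidneys, and these groups overlapped (0.11 ± 0.10, adjusted p = 0.685). Living donor grafts stood highest, at 1.34, 1.30 and 1.01. Brain dead donor grafts stood between, at 0.59, 0.58 and 0.75, with no overlap with any other group. Ddit3 was 2.35-fold above normal in living donor grafts (1.23 ± 0.10, adjusted p = 0.000588) and 1.58-fold in brain dead donor grafts (0.66 ± 0.10, adjusted p = 0.00272). Brain dead donor grafts were at 0.673 times the living donor value (log2 difference -0.57 ± 0.10, adjusted p = 0.0111). Living donor grafts were also 2.17-fold above brain dead donor kidneys (1.12 ± 0.10, adjusted p = 0.00356).

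**Figure D1:**
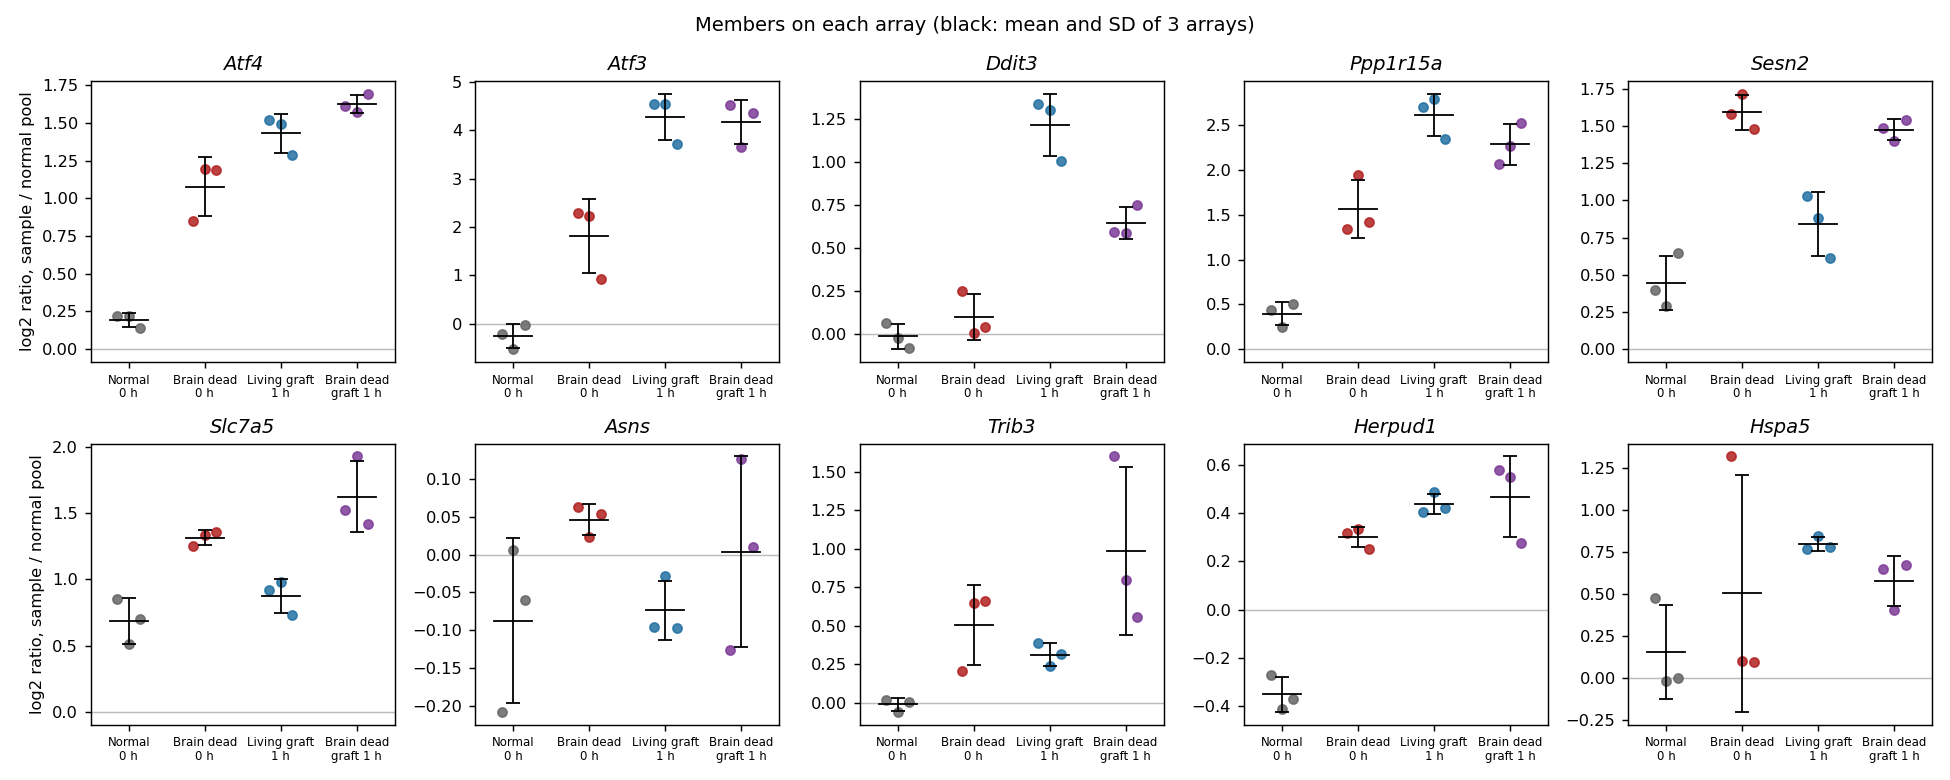
Log2 ratio of each of the 10 genes over the pool of normal kidneys (y axis, own scale in each panel) on every array of the 4 groups (x axis), with black lines for the mean and SD of 3 arrays. Ddit3 is highest in living donor grafts (1.01 to 1.34), whereas Sesn2 is above all other arrays in brain dead donor kidneys (1.48 to 1.72) and brain dead donor grafts (1.40 to 1.54), which overlap, and Asns stays between -0.21 and 0.13 on all 12 arrays.

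Ppp1r15a, also called GADD34, encodes the stress-induced partner that directs a phosphatase to eIF2. Normal kidneys gave 0.43, 0.25 and 0.50, brain dead donor kidneys 1.34, 1.94 and 1.42, living donor grafts 2.70, 2.79 and 2.35, and brain dead donor grafts 2.07, 2.27 and 2.52. Both kinds of graft lay above both 0 h groups and overlapped with each other. The gene was 2.25-fold above normal in brain dead donor kidneys (1.17 ± 0.18, adjusted p = 0.0097), 4.66-fold in living donor grafts (2.22 ± 0.18, adjusted p = 0.000588) and 3.71-fold in brain dead donor grafts (1.89 ± 0.18, adjusted p = 0.000455). Between grafts the difference was -0.33 ± 0.18 (adjusted p = 0.336). Living donor grafts were 2.07-fold above brain dead donor kidneys (1.05 ± 0.18, adjusted p = 0.0226).

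Trib3, a pseudokinase that binds ATF4 and dampens its activity in mouse and human cells, varied most within the brain dead donor grafts. It measured 0.02, -0.06 and 0.01 in normal kidneys, 0.20, 0.65 and 0.66 in brain dead donor kidneys and 0.39, 0.24 and 0.32 in living donor grafts. Brain dead donor grafts gave 1.60, 0.80 and 0.55, the first of them from replicate 21. All 9 arrays of the other 3 groups lay above the normal kidneys. With all arrays counted equally, the difference from normal passed in brain dead donor grafts alone, where it was 1.99-fold (0.99 ± 0.23, adjusted p = 0.0166). Without replicate 21 it was 0.69 and still passed, and without replicate 2 of the normal kidneys the adjusted p was 0.0535. In a fit of these 2 groups alone the adjusted p was 0.0738. Brain dead donor kidneys stood at 0.52 ± 0.23 above normal (adjusted p = 0.272). With array weights in limma that difference was 0.63 and passed (adjusted p = 0.0205). Brain dead donor grafts stood at 0.67 ± 0.23 above living donor grafts (adjusted p = 0.12, with no overlap).

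Sesn2, sestrin 2, a leucine sensor that restrains the growth kinase mTORC1, was raised with brain death. Ratios were 0.40, 0.29 and 0.64 in normal kidneys and 1.58, 1.72 and 1.48 in brain dead donor kidneys. Living donor grafts gave 1.03, 0.88 and 0.61, overlapping with normal, and brain dead donor grafts gave 1.49, 1.40 and 1.54, overlapping with brain dead donor kidneys. All 6 arrays from brain dead donors therefore lay above all 6 others. The share of all features that separate in this way was not counted. Sesn2 was 2.22-fold above normal in brain dead donor kidneys (1.15 ± 0.12, adjusted p = 0.0025) and 2.05-fold in brain dead donor grafts (1.03 ± 0.12, adjusted p = 0.00095). Brain dead donor grafts were 1.55-fold above living donor grafts (0.63 ± 0.12, adjusted p = 0.015). Living donor grafts reached 0.594 of the level in brain dead donor kidneys (-0.75 ± 0.12, adjusted p = 0.0173), and their difference from normal was 0.40 ± 0.12 (adjusted p = 0.243).

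Slc7a5, the LAT1 transporter that brings leucine and other large neutral amino acids into cells, was distributed in a like way. It measured 0.85, 0.51 and 0.70 in normal kidneys, 1.25, 1.34 and 1.36 in brain dead donor kidneys, 0.92, 0.98 and 0.73 in living donor grafts and 1.52, 1.93 and 1.42 in brain dead donor grafts. The 6 arrays from brain dead donors were again above the 6 others, and normal kidneys and living donor grafts overlapped. Slc7a5 was 1.54-fold above normal in brain dead donor kidneys (0.63 ± 0.13, adjusted p = 0.0305) and 1.91-fold in brain dead donor grafts (0.93 ± 0.13, adjusted p = 0.00196). Brain dead donor grafts were 1.68-fold above living donor grafts (0.75 ± 0.13, adjusted p = 0.012). These 3 calls were lost after quantile normalization between arrays, which gave 0.41, 0.41 and 0.48 (adjusted p = 0.188, 0.142 and 0.18 in that order).

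Asns, asparagine synthetase, a textbook target of ATF4, passed in none of the 6 group comparisons. Its 12 ratios ran from -0.21 to 0.13, and the largest difference between group means was 0.13 ± 0.07, between brain dead donor kidneys and normal kidneys (adjusted p = 0.407). The SD within groups was 0.02 to 0.13. Atf4 itself differed by 0.89 to 1.43 from normal in the same samples.

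Herpud1, a membrane protein of the ER that takes part in the degradation of misfolded proteins, was raised in all 3 groups. Normal kidneys gave -0.27, -0.41 and -0.37 and brain dead donor kidneys 0.32, 0.33 and 0.25. Living donor grafts gave 0.41, 0.48 and 0.42 and brain dead donor grafts 0.58, 0.55 and 0.28. All 9 raised arrays lay above the normal kidneys. The differences from normal were 1.57-fold in brain dead donor kidneys (0.65 ± 0.08, adjusted p = 0.00377), 1.73-fold in living donor grafts (0.79 ± 0.08, adjusted p = 0.00186) and 1.76-fold in brain dead donor grafts (0.82 ± 0.08, adjusted p = 0.000455). The 3 raised groups did not pass against one another (differences of 0.03 to 0.17, adjusted p from 0.402 to 0.863).

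Hspa5, the ER chaperone BiP, passed in no comparison when all arrays were kept and counted equally. Its ratios were 0.48, -0.02 and -0.0029 in normal kidneys and 1.32, 0.10 and 0.09 in brain dead donor kidneys. In both groups replicate 1 was far above the other two. Living donor grafts gave 0.76, 0.84 and 0.78 and brain dead donor grafts 0.65, 0.41 and 0.67. The difference of brain dead donor kidneys from normal was 0.35 ± 0.29 (adjusted p = 0.64) and turned to -0.06 without replicate 1 of the brain dead donor kidneys. Living donor grafts lay 0.64 ± 0.29 above normal with no overlap (adjusted p = 0.457). They lay 0.29 ± 0.29 above brain dead donor kidneys (adjusted p = 0.668), a difference that became 0.70 and passed when replicate 1 of the latter was left out (adjusted p = 0.0347). With array weights in limma it was 0.62 and passed (adjusted p = 0.0449).

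Brain dead donor kidneys were compared with normal kidneys to ask what was altered before transplantation. Of the 10 genes, 6 rose and 0 fell: Atf4, Atf3, Ppp1r15a, Sesn2, Herpud1 and Slc7a5. Of all 18478 features, 2.27% were higher and 2.39% lower. The median difference of the 10 genes was 0.64, against -0.0015 over all features. Calls of Atf4, Ppp1r15a, Sesn2 and Herpud1 held whichever array was left out. Atf3 lost its call without replicate 1 or 2 of the normal kidneys (2.08 and 1.93, adjusted p = 0.0625 and 0.0784) or without replicate 2 of the brain dead donor kidneys (1.85, adjusted p = 0.0864), and when these 2 groups were fitted alone (adjusted p = 0.0672). Slc7a5 kept its call only without replicate 1 of the brain dead donor kidneys. It stood at 0.71, 0.54 and 0.63 without replicates 1, 2 and 3 of the normal kidneys (adjusted p = 0.0509, 0.107 and 0.0817). Without replicates 2 and 3 of the brain dead donor kidneys it stood at 0.62 and 0.61 (adjusted p = 0.114 and 0.1).

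Living donor grafts at 1 h were compared with normal kidneys to see what transplantation alone did. Of the 10 genes 5 rose, Atf3, Ppp1r15a, Atf4, Ddit3 and Herpud1, and 0 fell, where 0.541% of all features were higher and 0.189% lower. Of the 135 features that passed 25.9% were lower, and after quantile normalization 37.1% of 194. All 5 calls held whichever of the 6 arrays was left out (highest adjusted p 0.0144, for Herpud1). The median difference of the 10 genes was 0.72. Sesn2, Slc7a5 and Trib3 lay at 0.40 ± 0.12, 0.19 ± 0.13 and 0.32 ± 0.23 and did not pass.

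Grafts of brain dead and living donors at 1 h were compared to ask how the donor's state showed in the graft. With a brain dead donor Sesn2 and Slc7a5 were higher and Ddit3 was lower, that is 2 genes higher and 1 lower of 10. Over all features 2.02% were higher and 4.74% lower. The median difference of the 10 genes was 0.05, against 0.01 over all features. In a fit of the 2 groups alone none of the 3 passed (adjusted p = 0.0596, 0.0685 and 0.0618 for Sesn2, Slc7a5 and Ddit3). After quantile normalization Ddit3 passed (-0.62, adjusted p = 0.013), and Sesn2 stood at 0.40 (adjusted p = 0.173). With replicate 27 of the brain dead group left out Sesn2 stood at 0.60 (adjusted p = 0.0515).

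**Figure D2:**
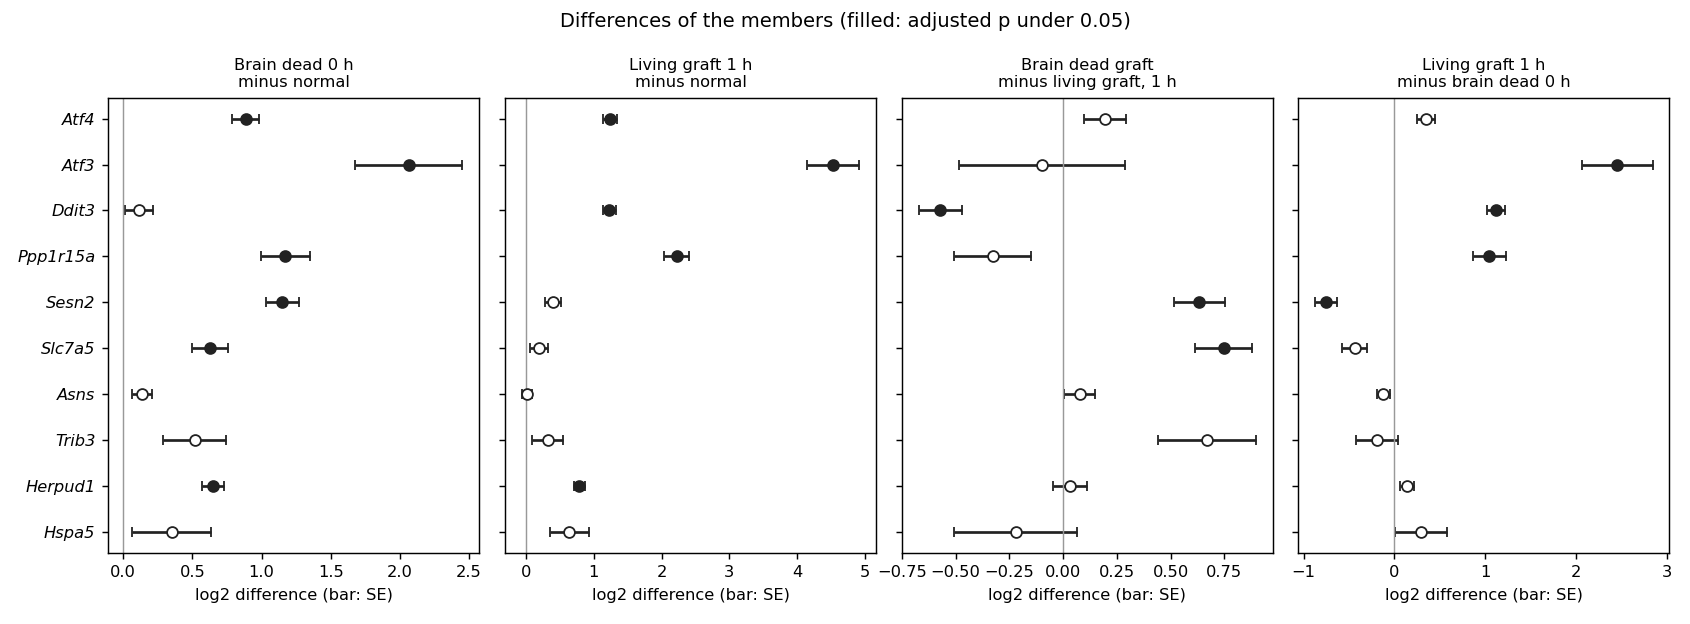
Log2 difference of each gene (x axis, points with SE bars, own scale in each panel) in 4 comparisons of 3 arrays against 3, with filled points for an adjusted p under 0.05. Sesn2 and Ddit3 lie on opposite sides of 0 between the 2 kinds of graft (0.63 and -0.57) and between living donor grafts and brain dead donor kidneys (-0.75 and 1.12).

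A direct comparison of the 2 exposures, transplantation and brain death, set the living donor grafts against kidneys of brain dead donors before transplantation. Each exposure joins several steps. The grafts were taken 1 h after transplantation and the donor kidneys after 6 h of ventilation, so kind of exposure and time cannot be told apart. Atf3, Ddit3 and Ppp1r15a were higher in the grafts and Sesn2 lower, that is 3 higher and 1 lower of 10, where 1.36% of all features were higher and 0.655% lower. Ddit3 kept its call whichever array was left out. Atf3 lost it when living donor graft 22 or 24 was left out (2.32 in both cases, adjusted p = 0.0676 and 0.0684). Ppp1r15a lost it without either of these arrays (1.01 and 0.96, adjusted p = 0.0843 and 0.0879) or without replicate 3 of the brain dead donor kidneys (0.98, adjusted p = 0.0759). Sesn2 lost it without replicate 24 of the living donor grafts (-0.77, adjusted p = 0.0586) or replicate 2 of the brain dead donor kidneys (-0.69, adjusted p = 0.0824). In a fit of the 2 groups alone none of the 4 passed, with adjusted p from 0.0656 for Ddit3 to 0.102 for Ppp1r15a.

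Brain dead donor grafts carried both exposures. Against normal kidneys 8 of the 10 genes were higher and 0 lower, all but Asns and Hspa5, where 6.15% of all features were higher and 9.08% lower. The median difference was 0.96. Against brain dead donor kidneys at 0 h, 0 of the 10 passed in limma in either direction, where 0.0379% of all features were higher and 0.0162% lower. There 5 of the 10 genes, and 2423 of 18478 features, had an unadjusted p under 0.05. Array weights brought 1 of the 10 past the threshold (Ddit3, 0.61, adjusted p = 0.0363). They took the number of all features that passed from 10 to 68. Atf3, Ppp1r15a, Atf4 and Ddit3 stood 2.36 ± 0.39, 0.72 ± 0.18, 0.55 ± 0.10 and 0.54 ± 0.10 higher (adjusted p = 0.103, 0.184, 0.115 and 0.117). Slc7a5 stood 0.31 ± 0.13 higher (adjusted p = 0.368).

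Whether the donor difference between grafts at 1 h equalled that between kidneys at 0 h was tested as an interaction of donor and transplantation. No member passed in limma, and 0.0% of all features did. At an unadjusted p under 0.05 there were 6 of 10 members, and 964 of 18478 features. Each of these 6 estimates was negative, and none is a call. They were -1.50 ± 0.25 for Ppp1r15a (unadjusted p = 0.000159, adjusted p = 0.473), -0.62 ± 0.11 for Herpud1, -0.69 ± 0.14 for Atf4, -0.69 ± 0.14 for Ddit3, -2.16 ± 0.55 for Atf3 and -0.51 ± 0.17 for Sesn2. Adjusted p for the other 5 ran from 0.473 to 0.875. Slc7a5 and Trib3 gave 0.12 ± 0.19 and 0.15 ± 0.32.

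Other genes of the pathway were taken from lists of 7 kinds, which also were drawn up with earlier results of these data known. The lists held 92 measured genes besides the 10. In brain dead donor kidneys 9 of them were higher than normal and 2 lower, with a median difference of 0.04. That is 9.78% higher and 2.17% lower, beside 2.27% and 2.39% of all features, so the share of lower genes was near that of the array as a whole. Of 27 other ATF4 targets 4 rose: Slc7a1, a transporter of cationic amino acids (2.21-fold, 1.14 ± 0.18), Slc1a5, a glutamine transporter (0.54 ± 0.12), Mthfd2, a mitochondrial enzyme of folate metabolism (0.50 ± 0.07), and Sqstm1, the autophagy receptor p62 (0.36 ± 0.07). Of 15 aminoacyl-tRNA synthetases 2 rose, Yars1 (0.35 ± 0.06) and Sars1 (0.20 ± 0.05). Of 12 genes of the eIF2 arm 1 rose, Eif2s2, the beta subunit of eIF2 (0.35 ± 0.08). Of 16 ER folding genes 1 rose, Dnajb9, an ER co-chaperone (0.57 ± 0.10), and of 12 C/EBP and ATF relatives 1 rose, Cebpd (2.26 ± 0.32). Lower were Nprl2, a subunit of a complex that restrains mTORC1 (-0.33 ± 0.08, the 1 of 14 mTORC1 genes that passed), and Trib2 (-0.43 ± 0.10). Mthfd2 and Cebpd kept their calls whichever array was left out, and the other 9 lost theirs at least once (highest adjusted p 0.175, for Trib2). Where a list gene has several probes they were averaged, and single probes were not compared.

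In living donor grafts 4 of the 92 (4.35%, beside 0.541% of all features) were above normal and 0 below: Ddit4, an inhibitor of mTORC1 also known as REDD1 (2.28-fold, 1.19 ± 0.11, adjusted p = 0.00137), Cebpd (2.19 ± 0.32), Dnajb9 (0.59 ± 0.10) and Mthfd2 (0.44 ± 0.07). Ddit4 alone kept its call whichever array was left out. The ratios of Ddit4 were 0.66, 0.62 and 0.65 in normal kidneys, 0.77, 0.89 and 0.59 in brain dead donor kidneys, 1.79, 1.64 and 2.07 in living donor grafts and 1.88, 1.78 and 1.65 in brain dead donor grafts. All 6 grafts lay above all 6 kidneys at 0 h. Living donor grafts were 2.12-fold above brain dead donor kidneys (1.08 ± 0.11, adjusted p = 0.00525). Ddit4 was also the 1 gene of the 92 that passed between brain dead donor grafts and brain dead donor kidneys (1.02 ± 0.11, adjusted p = 0.03), but not without replicate 2 or 3 of the latter or replicate 21 of the grafts (highest adjusted p 0.145).

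**Figure D3:**
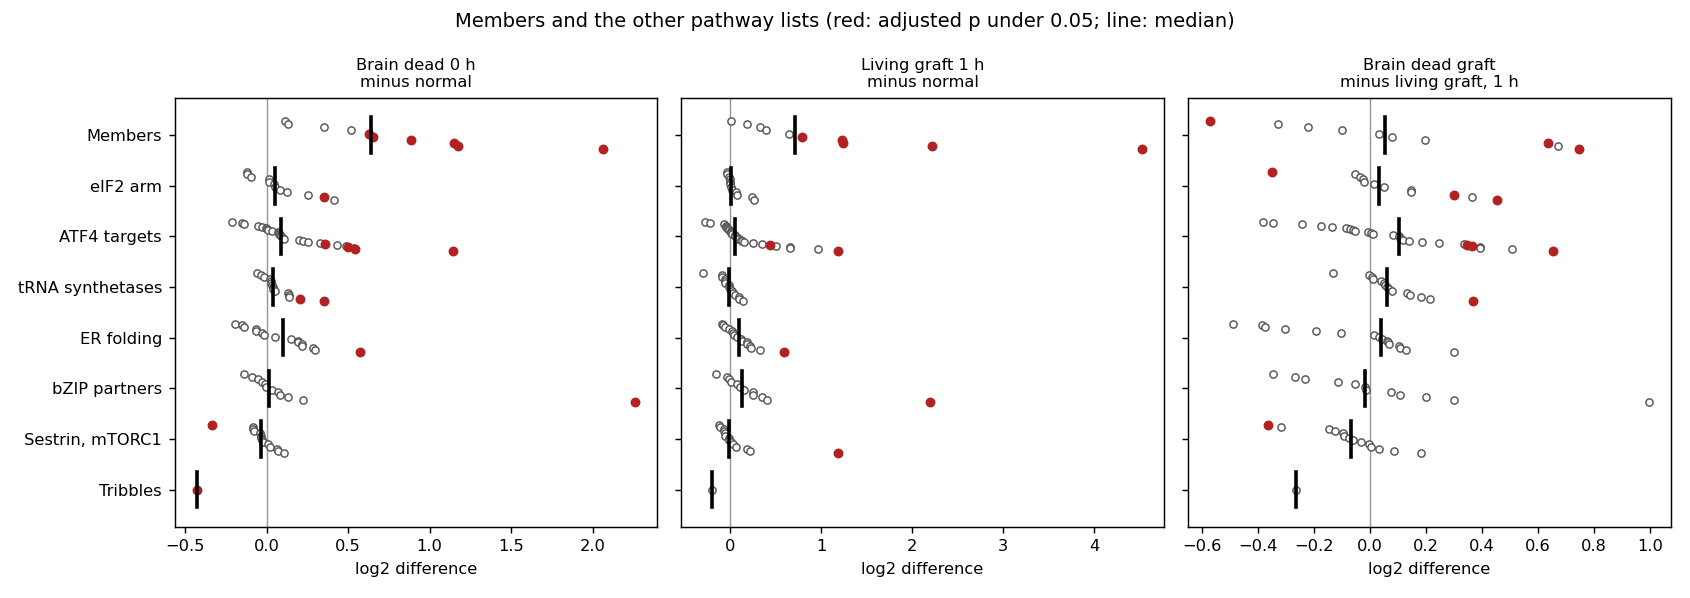
Log2 difference (x axis, own scale in each panel) of the 10 members and of the genes of 7 pathway lists (rows) in 3 comparisons, with red points for an adjusted p under 0.05 and a black line for each median. List medians lie between -0.07 and 0.13 except for Tribbles, whose 1 measured gene is Trib2. The members' median is 0.64 in brain dead donor kidneys and 0.72 in living donor grafts. Between the 2 kinds of graft it is 0.05, within the range of the lists.

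Between the 2 kinds of graft 6 of the 92 were higher with a brain dead donor and 2 lower. These are 6.52% and 2.17%, beside 2.02% and 4.74% of all features, so lower genes were no more frequent in the lists than on the array. Slc1a5 (1.57-fold, 0.65 ± 0.12, adjusted p = 0.0137), Sqstm1 (0.36 ± 0.07, adjusted p = 0.0156) and Cbs, an enzyme of the transsulfuration path from homocysteine (0.34 ± 0.07), were higher among the ATF4 targets. Slc1a5 measured -0.11, -0.17 and -0.08 in normal kidneys and -0.14, -0.14 and -0.18 in living donor grafts. It measured 0.54, 0.18 and 0.53 in brain dead donor kidneys and 0.37, 0.77 and 0.36 in brain dead donor grafts. All 6 arrays from brain dead donors lay above all 6 others for Slc1a5 and Sqstm1, and also for Slc7a1, Yars1 and Eif2b2. For Nprl2 they lay below all 6 others. How many features separate in these ways was again not counted. Eif2b2 (0.45 ± 0.10), Eif2s2 (0.30 ± 0.08) and Yars1 (0.37 ± 0.06) were higher too, and Eif2b5 (-0.35 ± 0.09) and Nprl2 (-0.36 ± 0.08) lower. Sqstm1 and Yars1 kept their calls whichever array was left out, and the other 6 did not (highest adjusted p 0.144, for Eif2b5).

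**Figure D4:**
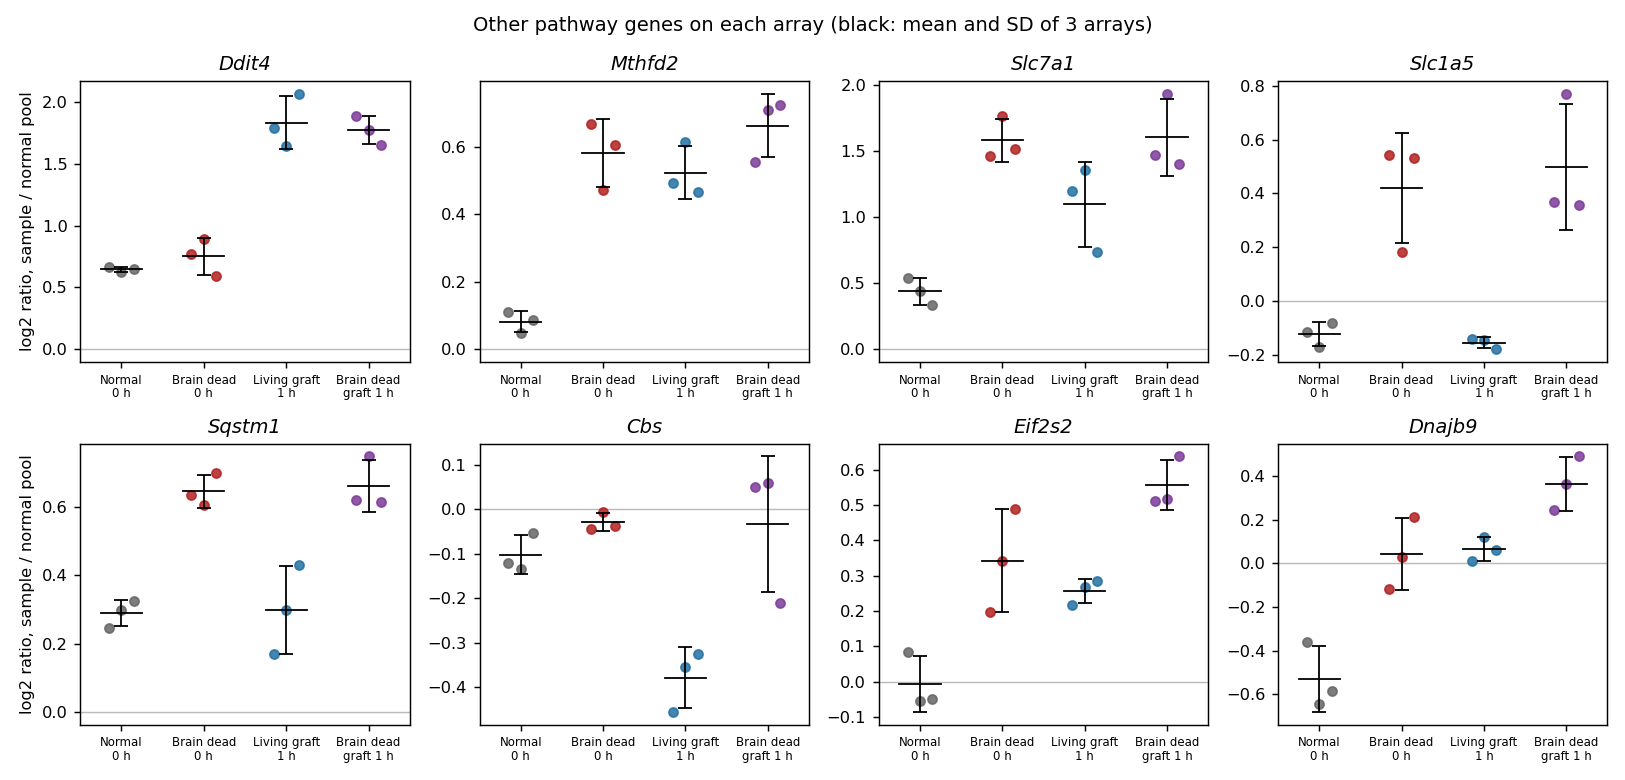
Log2 ratio over the pool of normal kidneys (y axis, own scale in each panel) of 8 genes of the lists on every array (x axis: the 4 groups), with black lines for the mean and SD of 3 arrays. The 8 were picked for drawing after their values were seen. Ddit4 is above 1.6 in all 6 grafts and under 0.9 in the other 6 kidneys, whereas Slc1a5 is above 0.1 in all 6 arrays from brain dead donors and below 0 in the rest.

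In brain dead donor grafts 16 of the 92 were above normal and 5 below. These are 17.4% and 5.43%, beside 6.15% and 9.08% of all features, and the share of lower genes was again not above that of the array. Ddit4 (1.13 ± 0.11), Mthfd2 (0.58 ± 0.07), Slc7a1 (1.17 ± 0.18) and Sqstm1 (0.37 ± 0.07) were the 4 with the smallest p of the 8 ATF4 targets that rose. Cebpd stood at 3.19 ± 0.32, Dnajb9 at 0.89 ± 0.10, Dnajc3, an ER co-chaperone, at 0.36 ± 0.09, Eif2s2 at 0.56 ± 0.08, Eif2b2 at 0.45 ± 0.10, Yars1 at 0.46 ± 0.06, Rars1 at 0.24 ± 0.06 and Sars1 at 0.21 ± 0.05. Lower were Mtor, the kinase of mTORC1 (-0.44 ± 0.11), Nprl2 (-0.30 ± 0.08), Lars1 (-0.43 ± 0.09), Trib2 (-0.46 ± 0.10) and Creb1 (-0.26 ± 0.08). Of these 21 genes, 11 kept their calls whichever array was left out. Living donor grafts, set against brain dead donor kidneys, had 2 of the 92 higher (2.17%, beside 1.36% of all features) and 3 lower (3.26%, beside 0.655%). They were higher in Ddit4 and Nprl2 (0.40 ± 0.08) and lower in Slc1a5 (-0.57 ± 0.12), Sqstm1 (-0.35 ± 0.07) and Cbs (-0.35 ± 0.07). Of these 5, Ddit4 alone kept its call whichever array was left out.

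The genes most like Atf4 over the 12 arrays, by the root mean square difference of log2 ratios among 9648 other named genes, were Jund (0.252 log2 units), Tmem252 (0.294), H3f3b (0.3004), Gadd45a (0.319) and Ifrd1 (0.326). The means of Jund, an AP-1 factor, were 0.12, 0.99, 1.52 and 1.86 in normal kidneys, brain dead donor kidneys, living donor grafts and brain dead donor grafts. Those most like Ddit3 were Nr4a2 (0.184), Srf (0.247), Camkmt (0.254), Tsc22d3 (0.255) and Pxdc1 (0.255). Nr4a2, an orphan nuclear receptor, had means of 0.05, 0.14, 0.97 and 0.73 in the same order, and Srf, serum response factor, had 0.08, 0.19, 0.81 and 0.57.

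Markers of other cells moved with some of these results. The mean log2 ratio of the 7 measured of 11 neutrophil markers was -0.19 to 0.05 in normal kidneys, 0.65 to 1.48 in brain dead donor kidneys, -0.27 to -0.10 in living donor grafts and 0.21 to 1.00 in brain dead donor grafts. It was thus above all other arrays in all 6 arrays from brain dead donors, as Sesn2, Slc7a5, Slc1a5, Sqstm1, Slc7a1, Yars1 and Eif2b2 were. Nprl2 was below all other arrays in the same 6. The median difference of the 7 markers from normal was 0.53 in brain dead donor kidneys. In brain dead donor grafts it was 0.055, and 1 of the 7 passed there, S100a9. Between brain dead and living donor grafts the median difference of the 7 markers was 0.63. S100a9 was the 1 of these 7 that passed at 0 h (3.47 ± 0.50), and 0 of the 7 passed in limma between grafts (3 at an unadjusted p under 0.05). The mean of 9 of 11 proximal tubule markers was -0.23 to 0.01 in normal kidneys, -0.28 to 0.16 in brain dead donor kidneys, -0.36 to -0.26 in living donor grafts and -0.46 to -0.29 in brain dead donor grafts. Of the other marker lists, Gzma (0.82 ± 0.15) and the endothelial Pecam1 (0.29 ± 0.06) were higher than normal in brain dead donor kidneys. Each was the 1 of 8 measured in its list that passed. The list medians were 0.11 for T and natural killer cells and -0.04 for endothelium. Between grafts, Cd3d was higher with a brain dead donor (0.21 ± 0.05) and the podocyte gene Podxl lower (-0.61 ± 0.14). Cd3d was 1 of 8 T and natural killer cell markers, whose median was -0.05. Podxl was 1 of 3 podocyte markers, whose median was 0.06. In brain dead donor grafts against normal, S100a9 (2.12 ± 0.50), C1qb (0.94 ± 0.20), Cd14 (0.37 ± 0.10), Cd3d (0.21 ± 0.05) and Pecam1 (0.25 ± 0.06) were higher. In the same comparison the proximal tubule genes Lrp2 (-0.54 ± 0.12) and Slc34a1 (-0.45 ± 0.12), the endothelial Kdr (-0.65 ± 0.17) and Podxl (-0.75 ± 0.14) were lower. List medians there were 0.18 for the 10 monocyte and macrophage markers and 0.03 for the 8 T and natural killer cell markers. They were 0.04 for the 8 endothelial, -0.40 for the 9 proximal tubule and 0.05 for the 3 podocyte markers. S100a9 was also lower in living donor grafts than in brain dead donor kidneys (-3.13 ± 0.50). The median of the 7 neutrophil markers in that comparison was -0.62. The part of these markers in the differences above was not tested, and ratios to a kidney pool do not show which markers are absent.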

How the data were processed

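A total of 12 arrays of rat kidney RNA were analysed, 3 in each of 4 groups read from the sample titles. Per the labels and the design text, the authors scanned 2-colour Agilent rat arrays, extracted spots with Agilent Feature Extraction and used GeneSpring 7.0 for normalization at the level of spots and chips and by lowess. The deposited table holds 21575 probes. The deposited values, which the authors made from the normalized Cy3/Cy5 channels per the design text, were read as log10 ratios of kidney (Cy3) over normal pool (Cy5), because they centre on 0 and end exactly at 2 and -2, Agilent's limit, and the direction rests on the design text. They were multiplied by 3.3219 to give log2 ratios. No intensity, slide or scan date was used, so dim spots and batches could not be weighed. The number of arrays, 3 per group, limits the precision. Probes with the same single annotated symbol (12750 of 21575; 5 had several and 8820 none) were averaged, and current names came from RefSeq through Entrez identifiers.

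Group means of all 18478 features were fitted over the 12 arrays with limma 3.58.1 in R 4.3.3 (lmFit, eBayes, 8 residual and 1.89 prior degrees of freedom). The 6 pairwise contrasts and the interaction of donor and transplantation were tested, and p-values adjusted over all features by the Benjamini-Hochberg method with a threshold of 0.05. Comparisons that share a group share its arrays. The procedure was tested on simulated data. The members and lists were chosen with earlier results of these data known. Named list genes are up to 4 per list and comparison with the smallest p among those that passed. Alternatives were quantile normalization, fits of 2 groups alone, array weights, robust eBayes, exact zeros (0.7% of values, none in the members) and limit values set to missing, single probes, a replicate block, and each array left out.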

Additional observations from a re-analysis of the deposited data

How the results depend on the processing

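Of the 420 values of single members under settings that keep all arrays, 392 kept their direction and side of the threshold, 19 lost and 5 gained a call and 4 turned. With 1 array left out, the numbers were 447, 17, 1 and 15 of 480. No difference that passed turned. The numbers of members that passed moved by more than 1.5 times as follows. Quantile normalization took the graft comparison from 3 to 1. A fit of the 2 groups alone took it from 3 to 0, and living donor grafts against brain dead donor kidneys from 4 to 0. Array weights took the latter from 4 to 7, adding Atf4, Slc7a5 and Hspa5. They took brain dead donor grafts against brain dead donor kidneys from 0 to 1. Leaving out each array in turn gave 4 to 6 members in brain dead donor against normal kidneys, 2 to 3 between grafts, 5 in living donor grafts against normal, 7 to 8 in brain dead donor grafts against normal, 1 to 5 in living donor grafts against brain dead donor kidneys, and 0 in the remaining comparison and in the interaction. In the order given, calls over all features ran from 165 to 1186, 557 to 1037, 33 to 210 and 1769 to 2366. The last of them ran from 69 to 655, 0 to 14 and, for the interaction, 0 to 4. Leaving out an array also left fewer samples. The cause of the other shifts was not tested.

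Replicate numbers 1 to 3 are shared by normal and brain dead donor kidneys. Deviations from the group means correlated at 0.328, 0.1 and 0.034 for the same numbers over all features. For unlike numbers they ran from -0.274 to 0.278, highest for replicate 2 of the normal kidneys with replicate 3 of the other group. These values do not settle whether the numbers pair the arrays. The arrays were treated as unpaired, and the adjusted p of this comparison rest on that. With the replicate block in a fit of these 2 groups, 0 of 10 members passed against 6 (adjusted p from 0.122 to 0.156 for those 6), and 2 of 18478 features against 860.

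None of the differences that turned sign had passed. After quantile normalization Herpud1 between grafts stood at -0.0387, Slc7a5 in living donor grafts against normal at -0.0679 and in brain dead donor grafts against brain dead donor kidneys at -0.0037, and Trib3 in the interaction at -0.0455. With each array left out in turn, Atf3 between grafts ran from -0.3765 to 0.1606, Herpud1 between grafts from -0.0246 to 0.1257 and Hspa5 at 0 h from -0.0559 to 0.555. Between brain dead donor grafts and brain dead donor kidneys, Hspa5 ran from -0.1325 to 0.4784 and Asns from -0.104 to 0.0217. In living donor grafts against normal, Asns ran from -0.0467 to 0.0597. In the interaction Asns ran from -0.1174 to 0.0083, Trib3 from -0.1526 to 0.369 and Slc7a5 from -0.0327 to 0.2215.

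Counts of all features that passed were 860, 1249, 135, 10, 2814 and 372 in brain dead donor against normal kidneys, between grafts, living donor grafts against normal, brain dead donor grafts against brain dead donor kidneys, brain dead donor grafts against normal, and living donor grafts against brain dead donor kidneys. Array weights gave 2852, 1289, 483, 68, 2687 and 3457 in that order, fits of 2 groups alone 350, 427, 141, 0, 1876 and 7, and quantile normalization 1120, 298, 194, 0, 2115 and 341. The share of lower features among those that passed in living donor grafts against normal was 25.9%, 37.1% after quantile normalization and 40.0% with array weights.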
